A study of Solanum lycopersicum with 21 samples.

Results

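A ribonuclease of the T2 family (Solyc05g007950, array symbol RNALE, hereafter RNase T2) and a pathogenesis-related protein of class 10 (Solyc09g090980, array symbol LOC101246381, annotated as similar to the apple protein Mal d 1, hereafter PR10) were followed through 7 groups of tomato leaf arrays. The genes were taken by their loci, each read from the 1 probe set with its name (20323305 for RNase T2 and 20391305 for PR10). They are 2 of the 67795 probe sets with deposited values. The study gives a smaller number of probe sets for the array. Probe sets without a gene name were not searched for these genes. RNase T2 and PR10 were picked because their transcripts were overexpressed after spraying with the peptide BP178 and because their values after the other treatments were already known. Their levels and differences below are therefore a description, and no test was applied to them in any comparison.

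Leaves of young greenhouse tomato plants, cv. Rio Grande, were collected 24 h after treatment, and each array carried total RNA of 10 plants. Experiment 1 held plants sprayed with BP178 at 125 µM (a synthetic antibacterial peptide that joins a cecropin A-melittin hybrid to a piece of magainin), with salicylic acid (SA) at 2.5 mM or with jasmonic acid (JA) at 2.5 mM, plants given ethylene, and plants sprayed with water (NTC e1). Experiment 2 held plants sprayed with flg15, a fragment of bacterial flagellin, at 125 µM, and its own water control (NTC e2). Every group had 3 arrays, named as biological replicates in the labels, and all plants were of the same cultivar with no introduced gene. Ethylene came from ethephon (1 mM) mixed with disodium hydrogen phosphate (2.5 mM). The methods place those plants in a sealed chamber while the labels call them sprayed, and no enclosed control was described, so the gas and the enclosure cannot be told apart.

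T2 ribonucleases cut single-stranded RNA and are made with a signal peptide, which sends them out of the cell or into the endomembrane system and the vacuole. In tomato the extracellular enzyme RNase LE is known from cultured cells starved of phosphate, where it helps to release phosphate from RNA, and RNase LX is its intracellular relative. PR10 proteins are small, mostly cytosolic proteins with the fold of the birch allergen Bet v 1, a shell around a hydrophobic pocket. They accumulate after infection or stress, and several have been assigned ribonuclease activity in vitro, but they are not related to the T2 family by sequence or fold. The study placed RNase T2 under the PR10 class as a ribonuclease-like protein.

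All values are log2 intensities after robust multi-array averaging, so a difference of 1 is a 2-fold change. Over the series, values ran between 0.956 and 13.8, and the array medians lay between 2.63 and 2.85. The leaf label was checked with transcripts of mesophyll photosynthesis. RBCS-1 (a Rubisco small subunit) had group means of 11.3 to 11.7, and CAB4 (a chlorophyll a/b-binding protein) 11.9 to 12.5, and of the 3 ripe fruit markers PG2 and E8 stayed below the array medians in every group. The third, Psy1 (a phytoene synthase of carotenoid synthesis), did not, with group means of 6.71 to 8.33, above the median on every array. The leaves were measured in bulk, so fewer cells with a transcript and less of it per cell cannot be told apart.

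RNase T2 was high in 3 groups, those sprayed with BP178, SA and JA, and low in the other treatments and in both controls. The BP178 arrays had log2 values of 5.92, 6.16 and 5.27. The SA arrays had 5.87, 7.02 and 6.09, and the JA arrays 5.96, 6.64 and 5.50. The water control of the same experiment, NTC e1, had 2.90, 2.90 and 3.58. Each of these 9 treated arrays lay above each of the 3 control arrays, with no overlap. Such a separation upwards was seen for 8.02% of all probe sets after BP178, 11.3% after SA and 11.9% after JA.

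Ethylene gave RNase T2 values of 4.31, 3.70 and 2.84, which straddled those of NTC e1, since the lowest ethylene array fell below all 3 control arrays (9.88% of all probe sets were separated upwards after ethylene). In experiment 2 the flg15 arrays had 4.02, 4.01 and 3.17, against 3.56, 3.04 and 3.12 in NTC e2. Here too the groups overlapped, because the third flg15 array was below the highest control array.

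The group mean of RNase T2 after BP178 was 5.78 ± 0.46 against 3.13 ± 0.39 in NTC e1 (SD, n = 3 each), a difference of 2.66 (SE 0.38) or a fold-change (FC) of 6.32. This was the eighth highest increase among all probe sets in that comparison. After SA the mean was 6.33 ± 0.61, an FC of 9.19, and after JA 6.03 ± 0.57, an FC of 7.48. These larger increases held ranks 254 and 179 among the increases after SA and JA, since those hormones moved many more transcripts. After ethylene the mean was 3.62 ± 0.74, an FC of 1.41, and after flg15 it was 3.73 ± 0.49 against 3.24 ± 0.28 in NTC e2, an FC of 1.40. Both of these differences, 0.49 each on the log2 scale, were about as large as the spread between arrays of a group.

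Ordered by level, the RNase T2 groups fell into a high and a low set. SA, JA and BP178 followed each other by gaps of 0.30 and 0.24, smaller than the larger SD of each pair, and their arrays overlapped. The next group, flg15, lay 2.05 below BP178 without overlap. Below it, flg15, ethylene, NTC e2 and NTC e1 followed by gaps of 0.11, 0.38 and 0.11, each within the larger SD of its pair. RNase T2 was above the array median on all 21 arrays, so its low values were still measured above the middle of the array.

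PR10 had another distribution, with high values after the 2 peptides and low values after all 3 hormones. The BP178 arrays had log2 values of 4.87, 4.64 and 4.32, against 2.08, 1.84 and 2.47 in NTC e1. The flg15 arrays had 5.07, 4.28 and 3.94, against 2.00, 2.02 and 2.76 in NTC e2. All peptide arrays lay above all control arrays of their experiment (8.02% of all probe sets did so after BP178 and 7.58% after flg15), and the lowest of them stood more than 1 log2 unit above the highest control array.

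PR10 in the SA arrays was 1.93, 2.26 and 2.16. The JA arrays had 1.91, 2.82 and 2.27, and the ethylene arrays 2.50, 2.30 and 1.58. These 9 hormone arrays were interspersed with the NTC e1 arrays, and 8 of the 9 lay below the median of their own array.

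**Figure D1:**
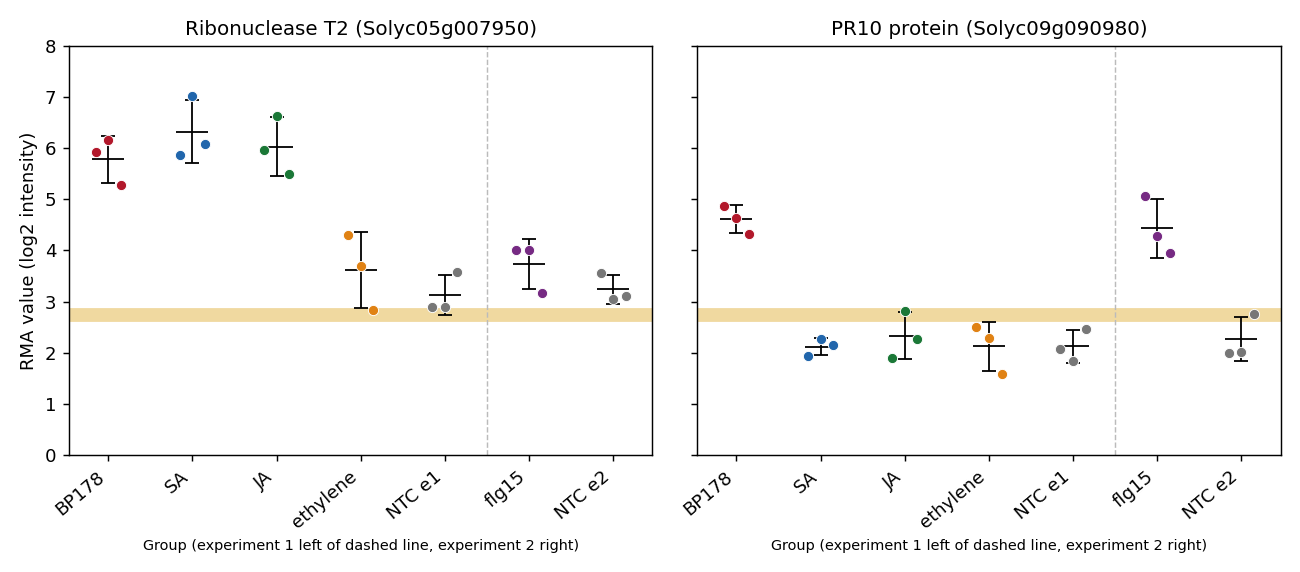
Log2 intensity (y axis) of RNase T2 and PR10 in each array (points), with the group mean and SD (bars), by group (x axis, 3 arrays each); the dashed line separates the experiments and the band spans the array medians, 2.63 to 2.85. RNase T2 stands at 5.27 or higher in every BP178, SA and JA array, and PR10 at 3.94 or higher in every BP178 and flg15 array.

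The PR10 mean was 4.61 ± 0.27 after BP178 against 2.13 ± 0.32 in NTC e1 (SD, n = 3 each), a difference of 2.48 (SE 0.30) or an FC of 5.59. After flg15 it was 4.43 ± 0.58 against 2.26 ± 0.43 in NTC e2, a difference of 2.17 (SE 0.30) or an FC of 4.50. PR10 ranked 11 among the increases after BP178 and 40 among those after flg15. The hormone differences were close to 0, at -0.012 after SA, 0.20 after JA and -0.0028 after ethylene on the log2 scale, with FCs of 0.992, 1.15 and 0.998. PR10 was below the array median on all 3 NTC e1 arrays and above it on 1 of the 3 NTC e2 arrays. With every value raised to at least the median of its array, a setting added after the data were seen, the differences were 1.85 after BP178 and 1.67 after flg15.

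The order of the PR10 levels also had 1 clear gap. BP178 stood 0.18 above flg15, within the SD of flg15 and with overlapping arrays. JA was 2.10 below flg15 without overlap. JA, ethylene and SA, with means of 2.33 ± 0.46, 2.13 ± 0.48 and 2.12 ± 0.17, lay within an SD of each other and of both controls.

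Side by side, RNase T2 and PR10 had high levels together only in BP178-sprayed leaves. In that comparison both reached an FC of 2, which 0.233% of all probe sets did, and both had every treated array above every control array, which 8.02% did. The members were chosen on that comparison, so nothing is read from their count. After flg15 PR10 alone reached an FC of 2 (0.329% of probe sets). RNase T2 alone did so after SA (2.29%) and JA (1.69%), and neither did after ethylene (1.27%). BP178, SA, JA and ethylene were set against the same 3 control arrays, so an unusual control array would move all 4 differences of a gene together. The RNase T2 level was 2.05 higher after BP178 than after flg15 and 0.54 lower after BP178 than after SA, and the PR10 level was 2.49 higher after BP178 than after SA. BP178 and flg15 came from different experiments, whose controls differed by 0.11 for RNase T2 and by 0.13 for PR10, both lower in NTC e1.

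**Figure D2:**
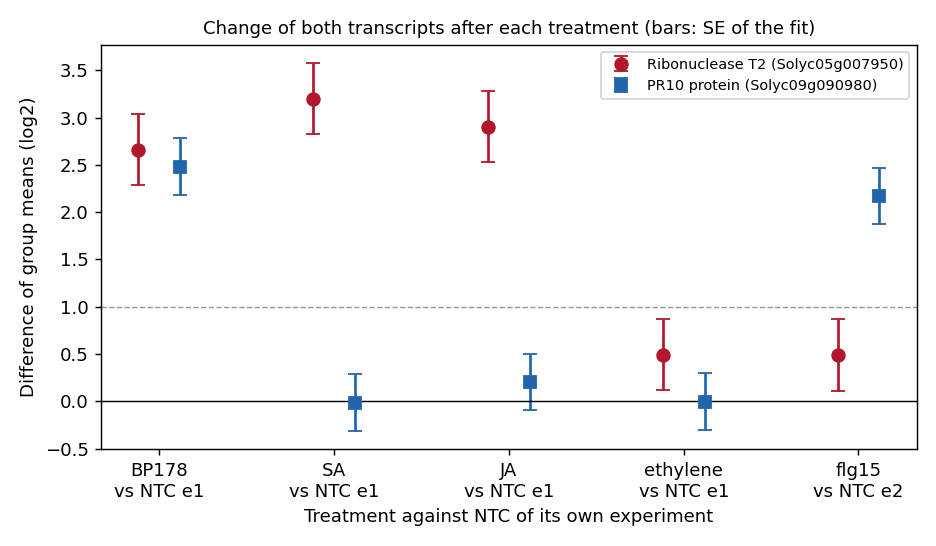
Difference of group means on the log2 scale (y axis, bars are the SE of the fit) of RNase T2 (circles) and PR10 (squares) for each treatment against the water control of its own experiment (x axis); the dashed line marks an FC of 2. Both genes lie above that line after BP178 (2.66 and 2.48), PR10 alone after flg15 (2.17), RNase T2 alone after SA and JA (3.20 and 2.90), and neither after ethylene.

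Within the groups, the 2 transcripts tended to deviate in the same direction. Once each group mean was taken off, the deviations of RNase T2 and PR10 had a Pearson r of 0.66 and a Spearman rho of 0.63 over the 21 arrays, and 17 of the 21 arrays were on the same side of the group mean for both. In the ethylene group, for example, array 3 was 0.78 below the mean for RNase T2 and 0.55 below it for PR10, and array 1 was above the mean for both. Each point shares its array, plants and normalisation, so the 2 measures are not independent. The deviations of a group also cancel out, so the 21 arrays are not independent points. The count of 17 was not set against other probe sets. Of the 23193 other probe sets with 1 gene name, 1.13% had deviations at least as strongly correlated with those of RNase T2, and 2.43% with those of PR10. The median r over those probe sets was 0.13 for RNase T2 and 0.14 for PR10. Across the raw values, which carry the treatments, r was only 0.18 and rho 0.33.

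The relatives of both genes were not used to choose them and were tested with limma across all probe sets, with Benjamini-Hochberg adjustment. A transcript was called raised at an FC of at least 2 and lowered at an FC of at most 0.5, with an adjusted p below 0.05. Of all probe sets, 0.124% were raised and 0.0133% lowered by BP178, 0.218% and 0.0384% by flg15, 2.26% and 2.12% by SA, 1.64% and 1.7% by JA, and 1.18% and 0.667% by ethylene.

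RNase LX (RNALX), the intracellular T2 ribonuclease, is the immediate neighbour of RNase T2 on chromosome 5. It was not called in any of the 5 comparisons. Its level was 4.83 ± 0.22 after BP178, 4.72 ± 0.25 after SA, 5.06 ± 0.10 after JA and 4.88 ± 0.56 after ethylene, against 4.69 ± 0.14 in NTC e1, and 4.38 ± 0.40 after flg15 against 4.27 ± 0.29 in NTC e2. All these arrays were above their array medians for RNALX. Under the treatments that went with high RNase T2, the RNALX difference was 0.14 after BP178 (95% confidence interval -0.35 to 0.64, limma adjusted p = 0.967), 0.03 after SA (-0.46 to 0.53, adjusted p = 0.983) and 0.37 after JA (-0.12 to 0.87, adjusted p = 0.49). The upper bounds of these intervals stayed below an FC of 2. The intervals for ethylene (0.19, -0.31 to 0.68) and flg15 (0.11, -0.39 to 0.60) did so too, with adjusted p of 0.829 and 0.913.

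PR10 lies in a run of 4 consecutive genes of the family on chromosome 9, in the order LOC778321, PR10, TSI-1 and LOC101246666. TSI-1 encodes a stress-induced PR10 protein, and LOC778321 (Solyc09g090970) and LOC101246666 (Solyc09g091000) flank the pair. Of these 3 relatives, 1 was called raised after flg15 (0.218% of all probe sets), 0 after BP178 (0.124%) and 0 after any hormone, and none was called lowered. At an unadjusted p below 0.05, 1 of the 3 passed after BP178, namely TSI-1 (7.27% of all probe sets), all 3 after flg15 (11.5%), and 0 after SA (17.4%), JA (17.3%) or ethylene (14.3%).

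LOC101246666 was the relative called raised. Its values were 2.69 to 3.58 in the flg15 arrays and 1.83 to 2.06 in the NTC e2 arrays, with no overlap. The means were 3.24 ± 0.48 and 1.98 ± 0.13, a difference of 1.26 (SE 0.18) or an FC of 2.39 (limma adjusted p = 0.001). After BP178 it averaged 2.25 ± 0.11 against 1.90 ± 0.13 in NTC e1, a difference of 0.36 with an adjusted p of 0.726. With experiment 2 fitted alone the flg15 difference of LOC101246666 had an adjusted p of 0.139, the highest over all alternative fits, and the lowest was 2.18e-05.

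TSI-1 averaged 2.51 ± 0.47 after BP178 against 1.66 ± 0.08 in NTC e1, a difference of 0.84 (SE 0.17) or an FC of 1.79. Its limma adjusted p of 0.0363 passed the threshold, but the FC did not reach 2, and without BP178 array 3 the difference was 0.57 with an adjusted p of 0.114. Over all alternative fits its adjusted p ranged between 0.00211 and 0.143. After flg15 TSI-1 averaged 2.00 ± 0.16 against 1.63 ± 0.08 in NTC e2, a difference of 0.37 with an adjusted p of 0.393.

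LOC778321 averaged 2.80 ± 0.60 after flg15 against 1.87 ± 0.05 in NTC e2, a difference of 0.94 (SE 0.21) with a limma adjusted p of 0.0512. Without flg15 array 2 the difference was 1.23 with an adjusted p of 0.00155, the lowest over the alternative fits, whose highest was 0.4. After BP178 the difference of LOC778321 was 0.28 with an adjusted p of 0.874. After the hormones the differences of all 3 relatives lay between -0.14 and 0.15, and the smallest adjusted p among them was 0.762.

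The median difference of the 3 relatives was 0.36 after BP178 and 0.94 after flg15, beside medians of -0.0063 and 0.02 over all probe sets. It was -0.08 under SA, 0.15 under JA and 0.08 under ethylene. All 3 relatives belonged to the dimmest 25% of probe sets by their mean over the arrays. The responses to BP178 and to flg15 were also compared directly, each against its own control. The response to BP178 exceeded that to flg15 by 0.47 for TSI-1 (adjusted p = 0.558), and it was lower by 0.65 for LOC778321 (adjusted p = 0.502) and by 0.90 for LOC101246666 (adjusted p = 0.239), so none of the 3 passed. The probe sequences were not used here, and hybridisation of 1 PR10 transcript to the probes of a neighbouring copy was not tested.

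The genes around both members were read in the same way. Of the 5 loci on each side of a member, 18 of 20 had 1 probe set. Among the 9 around RNase T2, RNALX included, 0 were called raised, and only LOC101249357 was called lowered, after SA, with 3.18 ± 0.18 against 4.57 ± 0.20 in NTC e1 (limma adjusted p = 0.00168; 2.12% of all probe sets were called lowered after SA). Among the 9 around PR10, LOC101246666 was the raised call, and LOC101246091 was lowered after SA, at 8.44 against 9.48 in NTC e1 (adjusted p = 7.7e-05). The median difference of the RNase T2 neighbours was 0.04 after BP178, 0.03 after SA and 0.08 after JA.

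**Figure D3:**
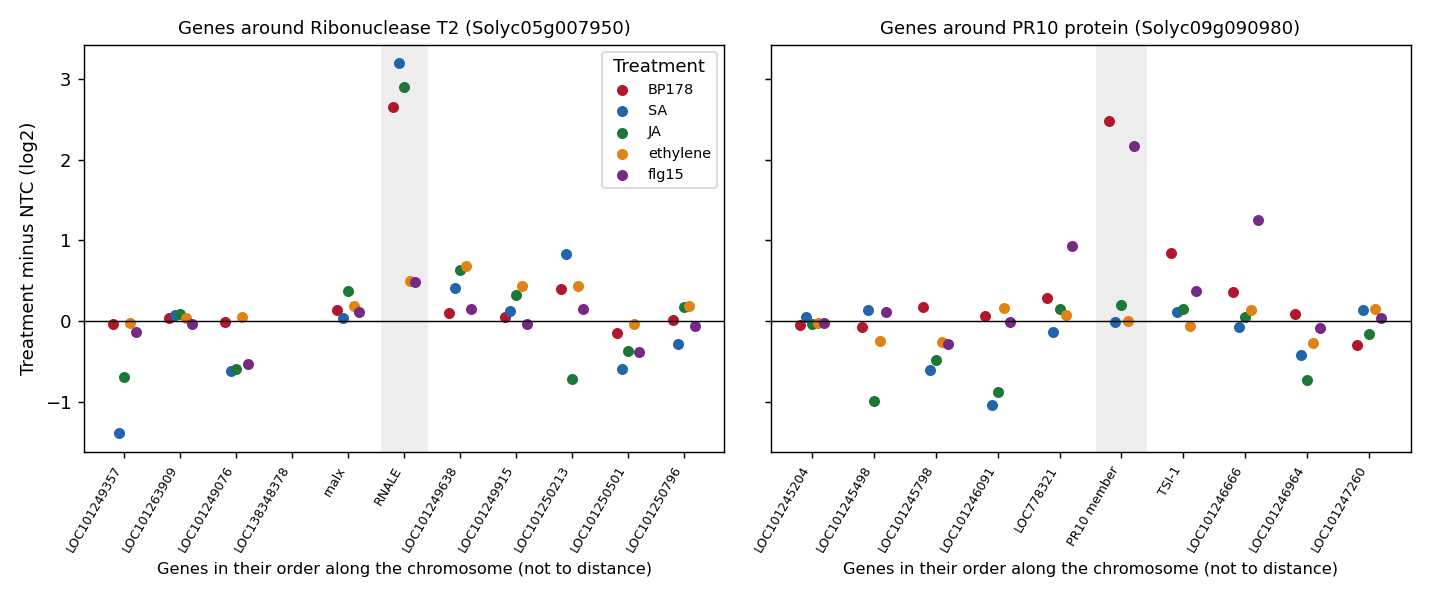
Difference from the water control on the log2 scale (y axis) for the genes up to 5 loci on either side of RNase T2 (left) and PR10 (right), in their order along the chromosome (x axis, not to distance), 1 colour per treatment. RNase T2 stands at 2.66 to 3.20 after BP178, SA and JA, beside RNALX at 0.03 to 0.37. The other neighbours of RNase T2 reach 0.84 at most under those treatments (LOC101250213 after SA). The PR10 copies beside the PR10 member reach 0.84 after BP178 (TSI-1) and 1.26 after flg15 (LOC101246666).

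Because RNase LE is known from phosphate starvation, phosphate transporters were read alongside it. PT1 and PT2 are members of the PHT1 family that takes up phosphate, PT4 is known from roots with mycorrhiza, and PT3 belongs to the same family. The probe sets of PT1 and PT3 carry these names through the list of transcripts that the study found differentially expressed on these arrays. They entered only through that list, so their direction, calls and p-values are not independent evidence. The shares of all probe sets given beside their calls are no measure for that pair. Of the 4 transporters, PT1 and PT3 were raised by flg15 (0.218% of all probe sets) and PT1 by JA (1.64%). PT2 and PT4, which were matched by symbol, were not called in any comparison. None of the 4 was called under BP178, SA or ethylene, where 1 of the 4 had an unadjusted p below 0.05 each time (7.27%, 17.4% and 14.3% of all probe sets), and none was lowered.

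PT1 was raised after flg15, with 7.09 ± 0.46 against 5.19 ± 0.15 in NTC e2, a difference of 1.90 (SE 0.21, limma adjusted p = 4.37e-05). PT3 was raised as well, with 4.06 ± 0.64 against 2.42 ± 0.32 in NTC e2, a difference of 1.64 (SE 0.24, adjusted p = 0.00108). With experiment 2 fitted alone the PT3 call was lost, with an adjusted p of 0.145, the highest over the alternative fits, whose lowest was 2.18e-05. After JA, PT1 averaged 7.49 ± 0.16 against 6.47 ± 0.41 in NTC e1, a difference of 1.02 (adjusted p = 0.00275), and that call was lost without NTC e1 array 2 or 3 or JA array 3, where the difference was 0.84, 0.96 and 0.94.

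After SA, under which RNase T2 was highest, the PT1 difference was 0.96 with an adjusted p of 0.00373, short of an FC of 2. After BP178, the PT1 difference was 0.25 with an adjusted p of 0.903, and the differences of PT2, PT3 and PT4 were 0.29, 0.12 and -0.06. The PT1 values depended on the control, which was 6.47 in NTC e1 and 5.19 in NTC e2. Against the arrays of both controls together, PT1 was also called raised after SA (1.59, adjusted p = 1.57e-06) and ethylene (1.19, adjusted p = 0.000192), and its difference after BP178 was 0.89 with an adjusted p of 0.0131, short of an FC of 2. The median over the 4 transporters was 0.18 under BP178, 0.76 under flg15, 0.13 under SA, 0.02 under JA and 0.01 under ethylene. After flg15, PT2 and PT4, which were matched by symbol, had differences of -0.14 and -0.11. The median of 0.76 therefore lay between these and the higher values of PT3 (1.64) and PT1 (1.90), the pair named through the study's selection. No transporter had a difference near it.

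Transcripts with the most similar pattern were sought among the 7066 probe sets with 1 gene name and a range of group means of at least 1 log2 unit, by Pearson r over the 21 arrays. These correlations share arrays and treatments with the members and are given without a test. The closest to RNase T2 was LOC101246685 (Solyc02g079440, a protein with an FAD-binding domain), with r = 0.95. It averaged 5.89 after BP178, 6.72 after SA and 6.19 after JA, against 3.50 in NTC e1, and ethylene (3.76) and flg15 (3.23, against 3.11 in NTC e2) were low, as for RNase T2. It remained the closest with r taken over the 7 group means (0.98), but ranked 12 by Spearman rho over the arrays (0.84). Next came LOC101248046 (Solyc09g066400, a cytochrome P450, r = 0.89), which averaged 5.11 after BP178, 8.94 after SA and 7.41 after JA, against 2.79 in NTC e1, and so was less even over the 3 treatments. LOC544061 (Solyc09g082810, r = 0.89), LOC101259675 (Solyc01g099910, an epoxide hydrolase, r = 0.88) and LOC101259199 (r = 0.88) completed the 5.

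The closest to PR10 was LOC101247130 (Solyc06g034370, a pectinesterase, r = 0.94), an enzyme class that removes methyl groups from cell wall pectin. It averaged 4.61 ± 0.57 after BP178 against 2.72 ± 0.14 in NTC e1, and 4.06 ± 0.56 after flg15 against 2.56 ± 0.22 in NTC e2. LOC101245329 (Solyc12g005720, a cysteine-rich receptor-like kinase, r = 0.93) averaged 5.15 ± 0.33 after BP178 against 2.45 ± 0.45 in NTC e1, and 5.74 ± 0.83 after flg15 against 1.90 ± 0.13 in NTC e2. Both were at 2.26 to 2.97 in the hormone groups. The other close patterns were those of LOC101267105 (r = 0.82), LOC101262227 (r = 0.81) and LOC101252269 (Solyc03g116690, a blue copper protein, r = 0.81). By rank correlation, 1 of these 5 (LOC101247130) and 1 of the 5 for RNase T2 (LOC544061) remained among the closest 5.

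**Figure D4:**
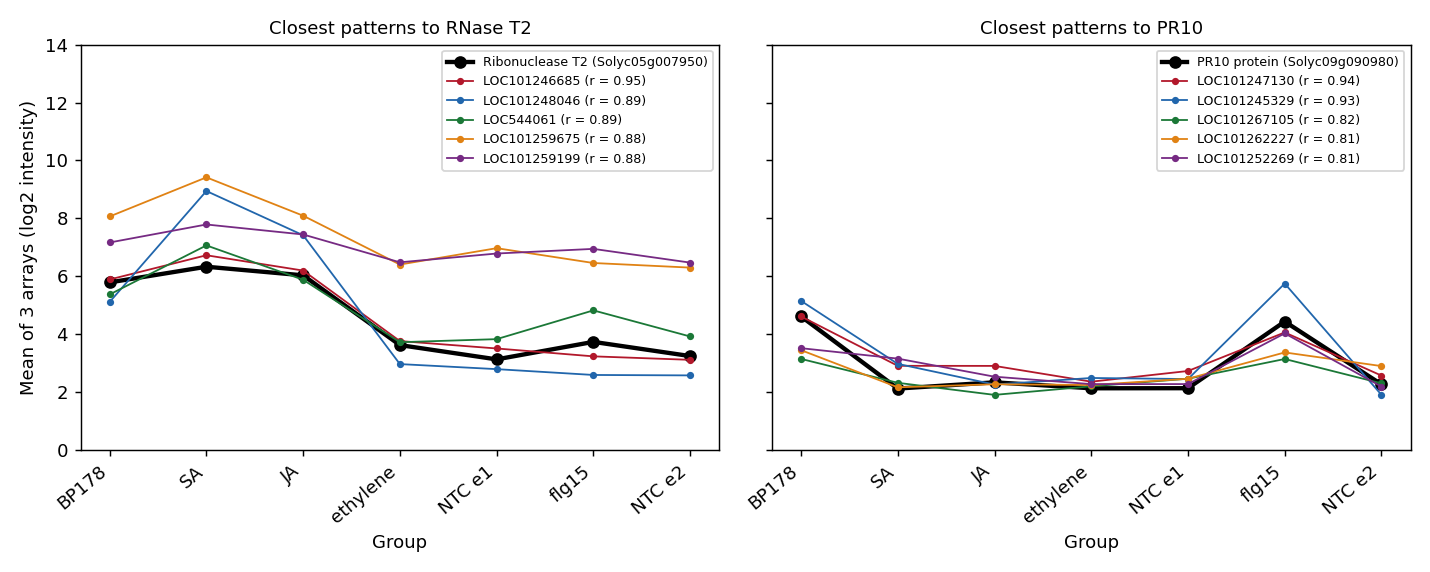
Group means in log2 intensity (y axis) over the 7 groups (x axis) for RNase T2 (left, black) and PR10 (right, black) and the 5 transcripts with the highest Pearson r to each (colours); heights of different probe sets are not comparable, only their shapes. Each of the RNase T2 set has its highest means after BP178, SA and JA, and each of the PR10 set after BP178 and flg15. The sets are not uniform. After flg15, LOC544061 stands at 4.82 against 3.92 in NTC e2, and LOC101259199 at 6.94 against 6.47. In the PR10 set, LOC101252269 stands at 3.15 after SA against 2.27 in NTC e1. LOC101262227 stands at only 3.37 after flg15 against 2.89 in NTC e2.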

How the data were processed

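Total RNA of tomato leaves was hybridised to Affymetrix tomato whole-transcript arrays. The deposited values are log2 intensities that the authors normalised by RMA in Expression Console; the software version and genome build were not given in the sources used here, and coordinates were left out. GEO's platform annotation gave 1 symbol to 23194 probe sets, several to 170 and none to 44431, and a RefSeq gene table gave only the order of loci. In R 4.3.3, limma 3.58.1 fitted all 21 arrays with 1 mean per group, each treatment against the control of its own experiment, with Benjamini-Hochberg adjustment over all 67795 probe sets. The fold and FDR thresholds follow the study's methods, which name Babelomics for the statistics but no model. The scripts were tested on simulated data.

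The members and the lists were chosen with earlier results of these data known. Named were the members, their relatives of both families with 1 gene name, those within 5 loci of a member, 4 phosphate transporters whether called or not, and the 5 probe sets closest to each member. Other phosphate genes of the planned list were not read. Gene descriptions were not in the reference tables, so lists were matched by symbol and locus only, and further family members may be missing; RNase LER was not matched to a probe set. Alternatives were another normalisation, centring, filter, prior, array weights, thresholds, controls, each experiment alone, the replicate block, group medians, a floor at the array median (added later) and leaving out each array. Only 3 arrays per group limit the precision.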

Additional observations from a re-analysis of the deposited data

Results flagged for a closer look

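The response of PT1, a phosphate transporter, differed between the peptides by the limma test of the difference itself. It was lower by 1.65 on the log2 scale (value -1.65, SE 0.30, adjusted p = 0.0358) after BP178 (6.71 against 6.47 in NTC e1) than after flg15 (7.09 against 5.19 in NTC e2), and 59 probe sets of 67795 passed this test. The control levels of PT1 themselves differed between the experiments, with every NTC e1 array (6.12 to 6.93) above every NTC e2 array (5.07 to 5.35). This gap is part of the difference by construction. The treated means, 6.71 and 7.09, lay closer together than the control means, 6.47 and 5.19. Each peptide was used in its own experiment, so peptide and experiment cannot be told apart. What made the controls differ was not tested. The probe set of PT1 carries its name through transcripts that the study selected on these arrays, so the test is not independent evidence. No group held 4 or more arrays, so no single array was examined as an outlier.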

How the results depend on the processing

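Of 310 values recomputed under an alternative, 299 stayed within the spread or within 1.5 times the reported value, 11 moved and 0 reversed. Only member differences of at least 1 on the log2 scale could count as reversed. The PR10 differences after the hormones, all smaller than that, changed sign in some settings. The 299 include values that could not move. Among these were the members' differences under the replicate block and those of RNase T2 under the floor at the array median. The 299 also include list counts of 0 that stayed at 0 in all 10 other settings and all 21 fits without 1 array. These were the lowered calls of all 3 lists and the raised calls among RNase T2 relatives. With group medians the RNase T2 difference after flg15 was 0.89 in place of 0.49, and with a floor at the array median, added after seeing the data, the PR10 difference after BP178 was 1.85 in place of 2.48. Leaving out 1 array gave RNase T2 differences of 2.47 to 2.92 after BP178, 2.85 to 3.43 after SA, 2.60 to 3.17 after JA, 0.15 to 0.88 after ethylene and 0.35 to 0.77 after flg15. For PR10 it gave 2.34 to 2.65 after BP178, 1.85 to 2.42 after flg15, -0.16 to 0.16 after SA, -0.04 to 0.42 after JA and -0.19 to 0.27 after ethylene. The raised calls among PR10 relatives, 1 in the report, numbered 0 with the dimmest 25% of probe sets left out, which removed all 3 relatives, 0 with each experiment fitted alone, 2 with array weights, 2 with no minimum fold, and 1 to 2 with 1 array left out. The phosphate transporter calls numbered 5 in place of 3 with the controls of both experiments joined, which added PT1 after SA and ethylene, 2 with each experiment alone, which lost PT3 after flg15, and 2 to 4 with 1 array left out. Of the 5 transcripts closest to RNase T2, 2 stayed among the closest 5 over group means and 1 by rank, and of the 5 closest to PR10, 4 and 1. Deviations of same-numbered treated and control arrays correlated between -0.19 and 0.189. Arrays of different numbers were not compared, so whether the replicate numbers pair the arrays was not tested. Every group held 1 array of each replicate number, so the replicate block could not change the members' differences, 2.66 and 2.48 after BP178. With the block, the PR10 relatives kept a count of 1, and raised calls after BP178 numbered 74 in place of 84. The TSI-1 adjusted p after BP178 was 0.097 with the block. Signals below the array median, as for PR10 in most control arrays and its relatives in all of them, limit how small a level could be measured.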
